A study of Mus musculus with 6 samples.

Results

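Heat shock proteins and chaperones are described here in the gastrocnemius (GAS) muscle, a calf muscle of mainly fast fibers, by RNA-seq of 3 libraries labelled WT and 3 labelled *Sirt6* KO. The genes were chosen by symbol alone: the heat shock protein families (symbols that begin with Hspa, Hspb, Hspd, Hspe, Hsph or Hsp90), the J-domain proteins Dnaja, Dnajb and Dnajc, *Bag1* to *Bag6*, and the subunits Cct2 to Cct8 and *Tcp1* of the cytosolic chaperonin. The symbols matched 90 of the 24532 genes in the deposited table, and 80 of them had at least 60 counts summed over the 6 libraries. Of the 10 genes below that limit, 6 had no count (*Dnajb13*, *Dnajb8*, *Dnajc22*, *Dnajc5b*, *Dnajc5g* and *Hspb9*), which allows a level of up to 3 counts or 0.0636 normalized CPM in a library, and *Dnajb7*, *Dnajb3*, *Dnajc6* and *Cct8l1* had 1, 4, 24 and 24 counts. The gene just inside the limit was *Cct6b* with 70 counts. All 80 genes above it also passed edgeR's filter on low counts, which kept 13801 genes for testing.

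The mice were C57BL/6 males of 20 weeks. Both groups carry *Sirt6* flox/flox alleles, and the libraries labelled *Sirt6* KO come from mice that also carry *Myl1-Cre*, a Cre recombinase driven by a myosin light chain promoter that is active mainly in fast (type II) fibers and from embryonic development on, so that cells where it is not active keep the gene. For the flox line, the methods name another stock than the reporting summary, where the stock name is that of a mixed background. The sources used here do not say in so many words that every library came from a different animal, and p-values measure the spread between these libraries. *Sirt6* itself went against the labels, at 2.77, 2.23 and 2.88 normalized CPM in WT and 7.81, 7.44 and 6.68 in KO-labelled libraries, which is higher in each library labelled *Sirt6* KO than in each WT library (log2 fold change 1.48, standard error 0.17, adjusted p = 0.0113, edgeR with Benjamini-Hochberg adjustment; by a two-sided exact permutation test p = 0.1, which is as small as 3 against 3 libraries can give). A count per gene says nothing of the exons between the flox sites alone. Every direction below therefore rests on the labels, and the groups are called WT and KO-labelled.

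Chaperones bind proteins that are not yet folded or have lost their fold. HSP70 proteins hold exposed stretches in a cycle driven by ATP, J-domain proteins deliver the substrates and start the hydrolysis, and HSP110 and BAG proteins release the nucleotide. HSP90 proteins bring kinases, receptors and, in muscle, myosin to their active form, the ring-shaped chaperonins enclose a protein while it folds, and small heat shock proteins hold unfolded proteins without ATP and are abundant in muscle, where several sit at the sarcomere. Many of these genes are induced by heat, exercise and proteotoxic stress through heat shock factor 1 (HSF1), which binds inverted GAA repeats, the heat shock elements, in their promoters.

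The promoters are shown first, to describe such elements, and the part of the elements in the fold changes was not tested. RefSeq windows on GRCm38.p6, from 250 bases before a transcription start to 50 after it, were at hand for 74 of the 90 genes and for 66 of the 80 above the limit. Among the genes with no window were *Hsp90aa1*, *Hspa8* and *Hsp90ab1*. A heat shock element of 2 units was searched as GAANNTTC or TTCNNGAA, which together cover both strands, and an element of 3 units as a run of 3 alternating units at the same spacing, so that each 3-unit match also holds 2-unit matches. Capitals mark the matches. *Hspa1a* and *Hspa1b* are shown because they fell most, *Hspe1* and *Hsph1* because their windows hold 3-unit elements, *Dnaja1* as the J-domain gene that fell most, and *Hspb1* as a small heat shock protein gene with 2 separate matches.
Hspa1a (chr17:34972107-34972406, minus strand): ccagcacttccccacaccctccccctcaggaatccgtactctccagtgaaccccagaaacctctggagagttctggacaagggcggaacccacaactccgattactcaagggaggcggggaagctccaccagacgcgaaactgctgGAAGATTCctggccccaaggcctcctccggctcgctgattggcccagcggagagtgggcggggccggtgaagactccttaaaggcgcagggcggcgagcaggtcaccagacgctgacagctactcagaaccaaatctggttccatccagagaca
Hspa1b (chr17:34959189-34959488, minus strand): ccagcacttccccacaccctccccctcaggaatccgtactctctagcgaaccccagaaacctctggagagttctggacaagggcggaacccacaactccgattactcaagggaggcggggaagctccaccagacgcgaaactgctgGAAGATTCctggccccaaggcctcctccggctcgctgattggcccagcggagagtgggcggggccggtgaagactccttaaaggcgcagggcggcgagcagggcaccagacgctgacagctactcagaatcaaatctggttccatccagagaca
Hspe1 (chr1:55087898-55088197, plus strand): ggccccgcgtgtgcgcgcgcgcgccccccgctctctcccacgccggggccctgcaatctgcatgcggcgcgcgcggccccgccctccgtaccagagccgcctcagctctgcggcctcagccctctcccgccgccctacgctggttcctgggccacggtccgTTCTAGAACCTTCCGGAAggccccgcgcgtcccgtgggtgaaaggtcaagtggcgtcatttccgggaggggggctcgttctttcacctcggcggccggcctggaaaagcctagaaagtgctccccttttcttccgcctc
Hsph1 (chr5:149636266-149636565, minus strand): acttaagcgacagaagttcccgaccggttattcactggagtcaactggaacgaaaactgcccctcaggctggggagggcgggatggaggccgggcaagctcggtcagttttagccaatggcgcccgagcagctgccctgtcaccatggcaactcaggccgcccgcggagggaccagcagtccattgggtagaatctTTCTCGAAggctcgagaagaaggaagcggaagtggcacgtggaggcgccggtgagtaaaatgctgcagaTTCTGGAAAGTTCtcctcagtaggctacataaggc
Dnaja1 (chr4:40722218-40722517, plus strand): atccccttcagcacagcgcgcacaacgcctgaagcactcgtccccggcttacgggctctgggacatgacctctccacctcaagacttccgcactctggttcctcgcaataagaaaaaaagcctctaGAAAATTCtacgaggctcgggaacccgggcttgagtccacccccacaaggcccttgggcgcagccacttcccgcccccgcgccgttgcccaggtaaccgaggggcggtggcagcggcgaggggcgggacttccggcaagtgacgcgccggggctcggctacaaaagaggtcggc
Hspb1 (chr5:135887669-135887968, plus strand): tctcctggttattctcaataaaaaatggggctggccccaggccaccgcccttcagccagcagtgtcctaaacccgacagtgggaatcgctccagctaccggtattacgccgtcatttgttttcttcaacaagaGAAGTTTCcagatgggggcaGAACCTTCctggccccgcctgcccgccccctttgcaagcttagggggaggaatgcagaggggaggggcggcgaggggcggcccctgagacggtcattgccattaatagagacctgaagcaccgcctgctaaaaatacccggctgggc

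The *Hspa1a* and *Hspa1b* windows have the same base at 296 of 300 positions (98.7%), and in both the match begins 104 bases before the start. The *Hspe1* window and that of *Hspd1* overlap over 285 of 300 bases, because these genes for the 2 parts of the mitochondrial chaperonin lie head to head, with the element between the starts of these windows. *Hspd1* has a further window, past the start of *Hspe1*, and the RefSeq interval of *Hspd1* reaches beyond that start too. A 2-unit element lay in a window of 19 of the 66 genes (28.8%), against 17.0% of all 27025 genes with a window and 14.0% of the 10911 tested genes with one. Among the genes that were lower in the KO-labelled libraries at an adjusted p under 0.05 it was 8 of 14 (57.1%), namely *Hspa1a*, *Hspa1b*, *Hsph1*, *Hspd1*, *Hspe1*, *Dnaja1*, *Dnajb4* and *Bag3*, and among the other 52 it was 11 (21.2%). The shared and near-identical windows make these 8 genes fewer than 8 separate sequences, and a gene with several windows counts when any of them holds a match. A 3-unit element was found in 4 of the 66 genes, *Hspd1*, *Hspe1*, *Hsph1* and *Dnajb6*, against 0.662% of all genes with a window; *Dnajb6*, named after its values were seen, did not pass the test (log2 fold change -0.40, adjusted p = 0.0639). These shares are a description of letters in a window, with no test, and a gene without a match may have an element outside it. *Hspa4l* and *Dnajb1*, with log2 fold changes of -1.72 and -1.58, had a window and no match.

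Across the 80 genes, 17 were lower and 2 higher in the KO-labelled libraries at an adjusted p under 0.05 (edgeR, adjusted over all 13801 genes tested). This is 21.2% lower and 2.5% higher, where 8.39% of all genes tested were called lower and 7.85% higher. The median log2 fold change was -0.25, against -0.021 over all genes tested, and the values ran from -5.01 (*Hspa1b*) to 0.57 (*Dnajc18*), with 56 below 0 and 24 above. All 3 values of one group lay apart from all 3 of the other in 45 genes, 37 of them lower (46.2%) and 8 higher, while such a separation was seen in 19.6% of all genes tested for lower and 20.3% for higher. All 19 genes that passed the test were among those 45. With a 2-fold change and unadjusted p under 0.05 as the rule, 12 genes lay lower and 0 higher, against 4.69% and 3.14% of all genes tested; by DESeq2 the counts were 9 and 0 and by limma 8 and 0. At an unadjusted p under 0.05 alone, 34 were lower and 6 higher, where 18.1% and 17.2% of all genes were.

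**Figure D1:**
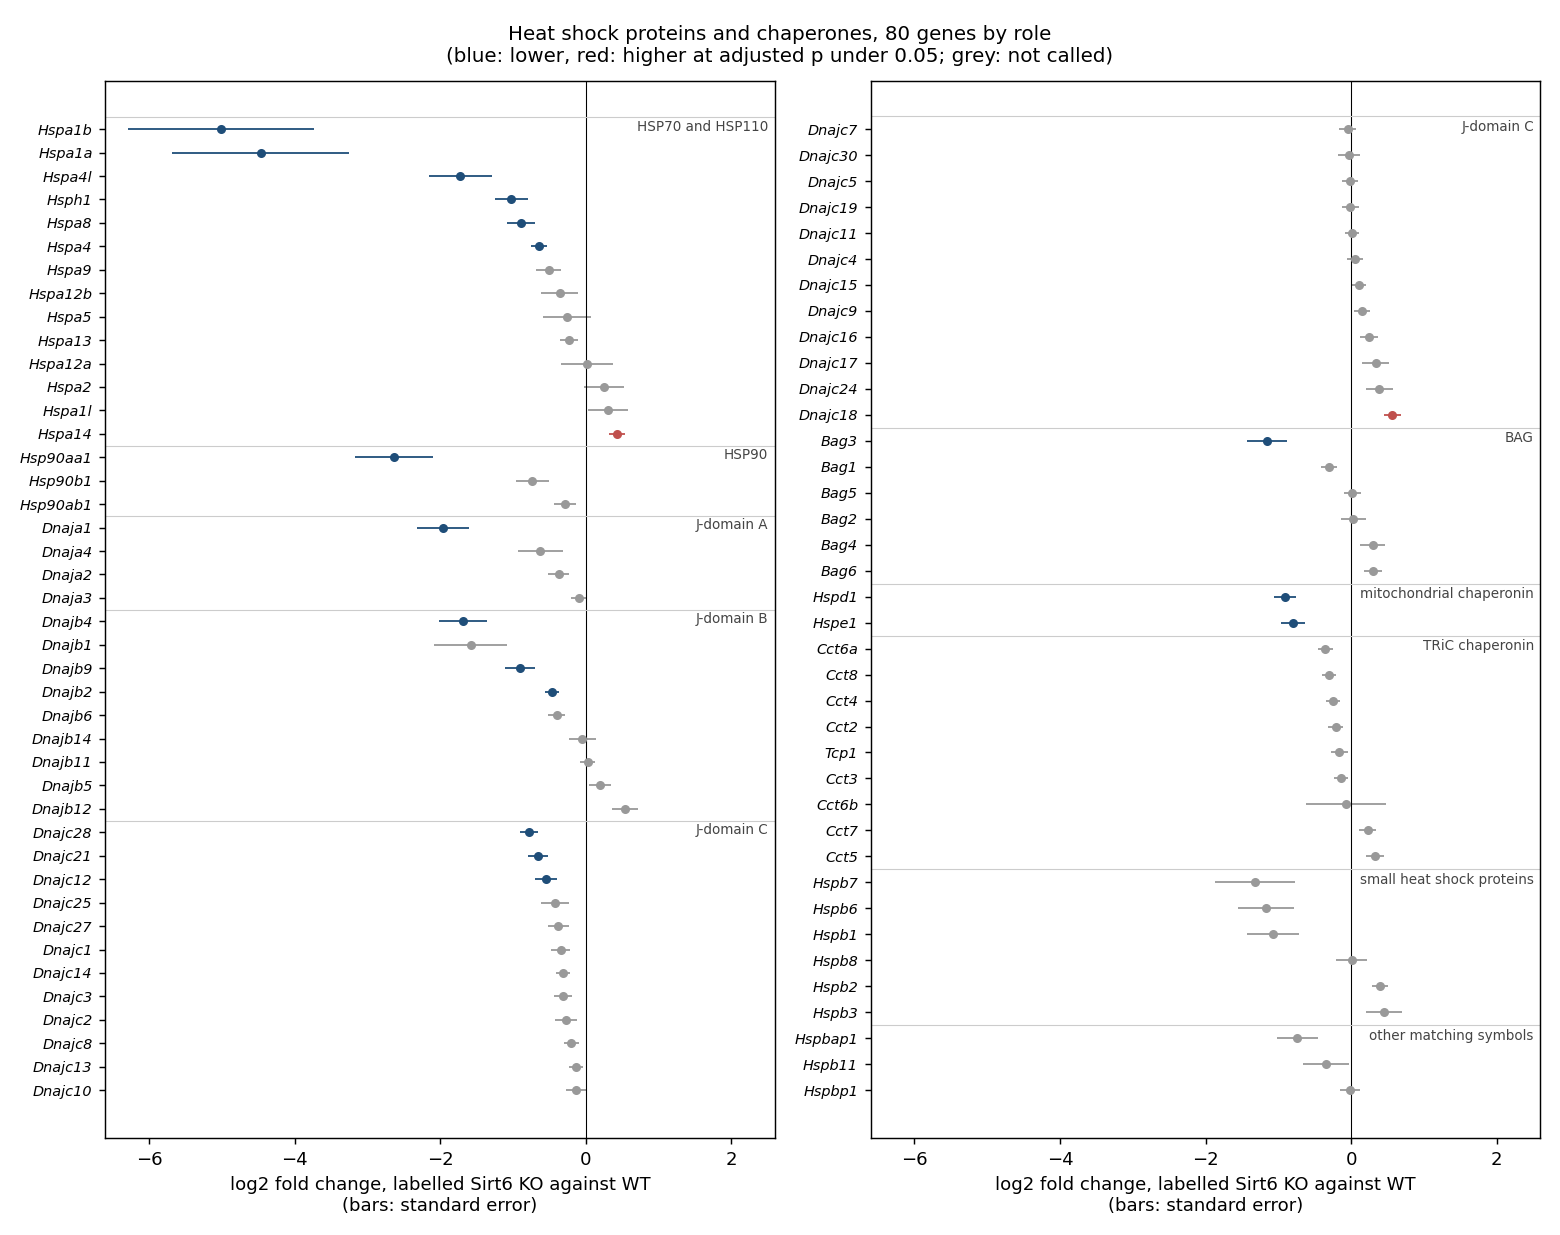
Log2 fold change of each of the 80 genes (x axis, KO-labelled libraries against WT; bars are standard errors), grouped by role and ordered within each role. The 17 genes in blue were lower and the 2 in red higher at an adjusted p under 0.05. The HSP70 and HSP110 group spans the widest range, from -5.01 to 0.43, and the TRiC subunits lie between -0.36 and 0.33.

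The plot of fold changes by role shows where the 19 called genes lie. Among HSP70 and HSP110 genes, 6 of 14 were lower and 1 higher. Of the 3 HSP90 genes 1 was lower, of the 4 Dnaja genes 1, of the 9 Dnajb genes 3, of the 24 Dnajc genes 3 (and 1 higher), and of the 6 BAG genes 1. Both genes of the mitochondrial chaperonin were lower. Over all genes tested, 8.39% were called lower and 7.85% higher. In the largest group, the Dnajc genes, these shares were 12.5% and 4.17%. None of the 9 TRiC subunits, the 6 small heat shock protein genes or the 3 remaining symbols passed (at an unadjusted p under 0.05, 3 TRiC subunits, 3 small heat shock protein genes and 1 other symbol were lower, and 1 TRiC subunit and 1 small heat shock protein gene higher; by DESeq2's adjusted p, 2, 2 and 0 were lower and 0, 1 and 0 higher). Of all genes, 18.1% were lower and 17.2% higher at an unadjusted p under 0.05, and 13.1% and 12.5% by DESeq2's adjusted p. The 3 remaining symbols are *Hspbp1*, a nucleotide exchange factor of HSP70, *Hspbap1* and *Hspb11*, which match by symbol and are not small heat shock proteins. Bulk RNA cannot tell fewer cells of a type from less RNA per cell.

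The inducible cytosolic HSP70 genes *Hspa1a* (NCBI gene 193740, chr17:34969359-34972156) and *Hspa1b* (NCBI gene 15511, chr17:34956429-34959238) fell most. *Hspa1b* was at 506, 31.9 and 27.5 normalized CPM in WT and 3.33, 10.01 and 4.19 in KO-labelled libraries (normalized CPM are counts brought to a common depth with TMM factors; values stand in the order of the replicate numbers). *Hspa1a* was at 432, 34.00 and 25.6 in WT and 4.51, 13.6 and 4.14 in KO-labelled libraries. WT 1 stood far above the other WT libraries in both genes, KO-labelled library 2 was the highest of its group, and the groups did not overlap in either gene. The log2 fold change was -5.01 for *Hspa1b* (standard error 1.27, adjusted p = 0.0396) and -4.46 for *Hspa1a* (standard error 1.21, adjusted p = 0.0468). Without WT 1 these became -2.33 and -1.99, with adjusted p = 0.0543 and 0.0856, and DESeq2 gave no p for either. Neither was called by limma on log2(FPKM + 1), at -3.24 and -2.97 (adjusted p = 0.068 and 0.0765) or with no filter on low counts (adjusted p = 0.0502 and 0.0592). The 2 genes lie 10120 bases apart and share reads, so that the split between them is uncertain. Their sum was 938, 65.9 and 53.1 CPM in WT and 7.84, 23.6 and 8.33 in the KO-labelled libraries (exact permutation, two-sided, p = 0.1, again the lower bound), and with their counts added together the log2 fold change was -4.73 (adjusted p = 0.043). *Hspa1l*, named here as the neighbour that begins 546 bases past *Hspa1a*, was at 22.5, 15.5 and 14.1 CPM in WT and 20.9, 28.99 and 14.5 in KO-labelled libraries, with overlap between the groups (log2 fold change 0.31, adjusted p = 0.457).

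*Hspa8* (NCBI gene 15481, chr9:40801276-40805202), the constitutive cytosolic HSP70, had the highest level of the 80 genes per length, at FPKM values of 844 ± 138 (SD, n = 3) in WT and 407 ± 84.99 (SD, n = 3) in the KO-labelled libraries. Its normalized level was 2080.1, 1765 and 1889 normalized CPM in WT and 1044, 1232 and 822 in KO-labelled libraries; every WT library lay well above every other one. The difference was 1.85-fold (log2 fold change -0.89, standard error 0.19, adjusted p = 0.0243). *Hsph1* (NCBI gene 15505, chr5:149616843-149636498), an HSP110 that exchanges the nucleotide of HSP70, was at 299, 168 and 191 CPM in WT and 114, 119 and 91.3 in KO-labelled libraries. Its groups were apart, with WT 1 well above the other 2 WT libraries (log2 fold change -1.02, standard error 0.23, adjusted p = 0.0293). The related *Hspa4* and *Hspa4l*, also of the HSP110 branch, were lower as well. *Hspa4* was at 209, 188 and 178 CPM in WT and 124, 127 and 118 in KO-labelled libraries, a narrow spread in both groups (log2 fold change -0.64, standard error 0.11, adjusted p = 0.0167). *Hspa4l* was at 31.3, 16.8 and 9.70 CPM in WT and 4.07, 7.95 and 5.48 in KO-labelled libraries, with WT 1 highest and WT 3 lowest among the WT libraries (log2 fold change -1.72, standard error 0.44, adjusted p = 0.039). *Hspa14*, the HSP70 of the ribosome-associated complex, was the HSP70 gene that rose, at 9.98, 8.93 and 9.23 CPM in WT and 12.95, 12.9 and 12.1 in KO-labelled libraries (log2 fold change 0.43, standard error 0.11, adjusted p = 0.0434).

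The HSP70 genes of the organelles did not pass the edgeR test. *Hspa5* (BiP), the HSP70 of the endoplasmic reticulum, was at 433, 267 and 254 CPM in WT and 154, 331 and 313 in KO-labelled libraries, and the groups overlapped (log2 fold change -0.26, adjusted p = 0.608). *Hspa9*, the mitochondrial HSP70, was at 682, 735 and 576 CPM in WT and 393, 546 and 461 in KO-labelled libraries, with every WT library above the others (log2 fold change -0.51, adjusted p = 0.0797). Its adjusted p was 0.0189 by DESeq2, 0.0451 by limma on log2(FPKM + 1) and 0.172 after the GC content correction described below. The remaining HSP70 genes, *Hspa2*, *Hspa12a*, *Hspa12b* and *Hspa13*, lay between -0.36 and 0.25 on the log2 scale and were not called.

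Of the HSP90 genes, *Hsp90aa1* (NCBI gene 15519, chr12:110691036-110696395), the inducible cytosolic form, was at 591, 199 and 133 CPM in WT and 44.3, 60.4 and 44.3 in KO-labelled libraries. Even WT 3, the lowest of its group, was well above KO-labelled library 2, the highest of the other, and WT 1 stood out again. The gene was 6.19-fold lower (log2 fold change -2.63, standard error 0.54, adjusted p = 0.0229), and without WT 1 it still passed, at -1.73 (adjusted p = 0.0464). *Hsp90ab1*, the constitutive cytosolic form and the second by level per length (FPKM 511 ± 91.3 (SD, n = 3) in WT and 376 ± 30.1 (SD, n = 3) in the KO-labelled libraries), was at 1527, 1215 and 1397 normalized CPM in WT and 1213, 1062 and 1137 in KO-labelled libraries. Its lowest WT library and highest KO-labelled library nearly met, and it was not called (log2 fold change -0.28, adjusted p = 0.224). *Hsp90b1* (GRP94), the form of the endoplasmic reticulum, was at 320.5, 199 and 189 CPM in WT and 119, 157 and 149 in KO-labelled libraries, apart but not called (log2 fold change -0.74, adjusted p = 0.0647). Its adjusted p was 0.0117 by DESeq2 and 0.105 by limma on log2(FPKM + 1).

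Of the J-domain genes of classes A and B, *Dnaja1*, *Dnajb4*, *Dnajb2* and *Dnajb9* were lower. *Dnaja1* (NCBI gene 15502, chr4:40722468-40734965), a farnesylated partner of HSP70, was at 235, 108 and 84.2 CPM in WT and 36.5, 37.4 and 35.9 in KO-labelled libraries. The KO-labelled libraries were nearly equal, while the WT libraries spread widely, with WT 1 highest and WT 3 lowest. The gene was 3.90-fold lower (log2 fold change -1.96, standard error 0.36, adjusted p = 0.0184). *Dnajb4* was at 214, 147 and 83.3 CPM in WT and 46.2, 54.1 and 37.9 in KO-labelled libraries, in a similar order (log2 fold change -1.69, standard error 0.33, adjusted p = 0.0203). *Dnajb1* (HSP40), the partner induced with HSP70 under stress, was low in this muscle, at 26.3, 9.31 and 5.88 CPM in WT and 4.63, 4.93 and 4.29 in KO-labelled libraries. Its groups were apart, yet WT 3 was close to the other group and the gene was not called (log2 fold change -1.58, adjusted p = 0.0722; 0.00597 by DESeq2). Without WT 1 its log2 fold change was -0.71 (adjusted p = 0.126). *Dnajb2*, known from neurons and muscle, was at 105, 103 and 112 CPM in WT and 78.8, 80.05 and 73.8 in KO-labelled libraries (log2 fold change -0.46, standard error 0.10, adjusted p = 0.0251). *Dnajb9* (ERdj4), a partner of BiP, was at 62.96, 86.99 and 70.8 CPM in WT and 28.2, 44.1 and 45.9 in KO-labelled libraries (log2 fold change -0.90, standard error 0.21, adjusted p = 0.0321), whereas BiP itself overlapped between the groups, as above.

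Of the Dnajc genes, *Dnajc28*, *Dnajc21* and *Dnajc12* were lower and *Dnajc18* higher. *Dnajc28* was at 45.8, 45.6 and 38.8 CPM in WT and 25.04, 27.9 and 22.6 in KO-labelled libraries (log2 fold change -0.79, adjusted p = 0.0143), the smallest adjusted p of the 80 genes. *Dnajc21*, a factor of ribosome biogenesis, was at 90.1, 85.4 and 113 CPM in WT and 66.4, 59.7 and 57.03 in KO-labelled libraries (log2 fold change -0.66, adjusted p = 0.0243), and *Dnajc12*, a co-chaperone of the aromatic amino acid hydroxylases, at 10.9, 13.05 and 13.6 CPM in WT and 9.52, 8.79 and 7.34 in KO-labelled libraries (log2 fold change -0.55, adjusted p = 0.0487). In all of these the groups were apart. *Dnajc18* was at 31.8, 34.00 and 39.96 CPM in WT and 53.1, 47.7 and 55.8 in KO-labelled libraries, which made it the gene with the largest rise of the 80 (log2 fold change 0.57, standard error 0.12, adjusted p = 0.0264). The other 20 Dnajc genes above the limit lay between -0.42 and 0.38, with adjusted p between 0.0726 and 0.955.

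*Bag3* (NCBI gene 29810, chr7:128523583-128546981) encodes the BAG protein that works with HSP70 and HSPB8 at the Z-disc to clear damaged filamin in muscle. It was at 344, 279 and 185 CPM in WT and 90.8, 156 and 114 in KO-labelled libraries. WT 1 was the highest of its group and KO-labelled library 2 of the other, without overlap (log2 fold change -1.16, standard error 0.27, adjusted p = 0.033). The other 5 BAG genes were not called, and their log2 fold changes lay between -0.30 and 0.30. The mitochondrial chaperonin is made of HSP60 (*Hspd1*, NCBI gene 15510, chr1:55077833-55088243) and its lid HSP10 (*Hspe1*, NCBI gene 15528, chr1:55088148-55091317). *Hspd1* was at 367, 305 and 259.6 CPM in WT and 156, 179 and 161 in KO-labelled libraries (log2 fold change -0.91, standard error 0.15, adjusted p = 0.0163). *Hspe1* was at 89.1, 61.4 and 60.6 CPM in WT and 39.3, 41.6 and 40.2 in KO-labelled libraries (log2 fold change -0.80, standard error 0.16, adjusted p = 0.023). Both fell by a similar factor, 1.88 and 1.74, all WT libraries lay above all others, and both passed without WT 1 (adjusted p = 0.0492 and 0.0478). Their RefSeq intervals overlap by 96 bases, and reads from that stretch cannot be told apart where the counting did not use strand, which is not given in the sources used here.

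**Figure D2:**
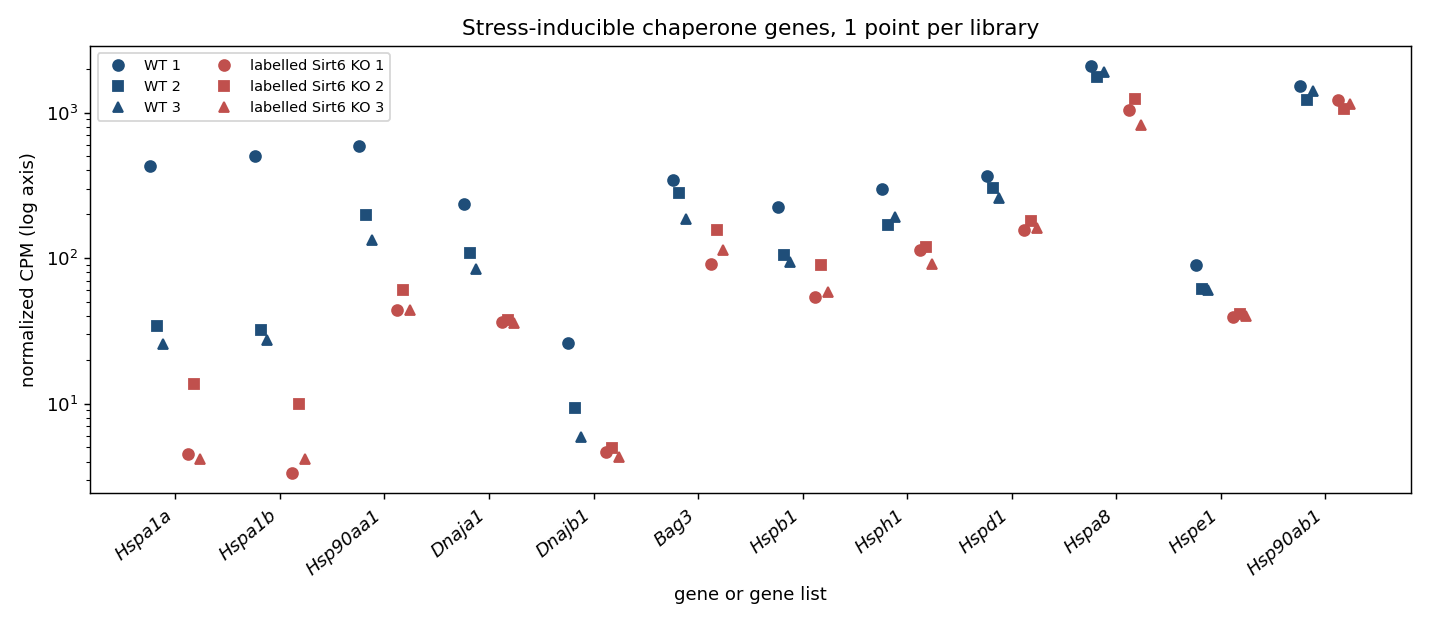
Normalized CPM (y axis, log scale) of the 12 stress-inducible genes in each of the 6 libraries, 1 point per library; circles, squares and triangles are replicates 1, 2 and 3. WT 1 was the highest of all 6 libraries in each of the 12 genes.

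The plot of the 12 stress-inducible genes shows their order by library. The list (*Hspa1a*, *Hspa1b*, *Hspa8*, *Hsph1*, *Dnajb1*, *Dnaja1*, *Hspb1*, *Hsp90aa1*, *Hsp90ab1*, *Hspd1*, *Hspe1* and *Bag3*) had a median log2 fold change of -1.12; 9 of the 12 were called lower and the groups were apart in all 12, where 8.39% and 19.6% of all genes tested were. The list was drawn up with earlier results of these data known. DESeq2 called 9 of the 12 lower, limma on log2(FPKM + 1) 7, and the GC content correction described below left 5. Over all genes these fits called 13.1%, 10.9% and 3.59% lower. With 1 library left out, between 0 and 11 of the 12 were called. WT 1 was the highest library in 12 of 12 genes, KO-labelled library 2 was the highest of its group in 11, and WT 3 was the lowest WT library in 9. Over all 13801 genes tested, these counts were 2157, 4986 and 5163. The median over the list of the log2 ratio of WT 1 to the mean of the other WT libraries was 0.96, against -0.037 over all genes tested. The coefficient of variation in WT had a median of 41.6% over the list and of 17.3% over all genes tested, while in the KO-labelled libraries it was 16.1% and 11.8%. Summed, the list stood at 6724, 4283 and 4353 CPM in WT and at 2804, 3006 and 2517 in the KO-labelled libraries. In every library most of this sum came from *Hspa8* and *Hsp90ab1*, the constitutive cytosolic forms, whose values are given above. The 68 other genes had a median of -0.14, with 8 called lower (11.8%) and 2 higher (2.94%), against 8.39% and 7.85% of all genes tested. All 80 genes together took 1.52%, 1.16% and 0.975% of the counts in WT and 0.778%, 0.857% and 0.740% in the KO-labelled libraries.

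**Figure D3:**
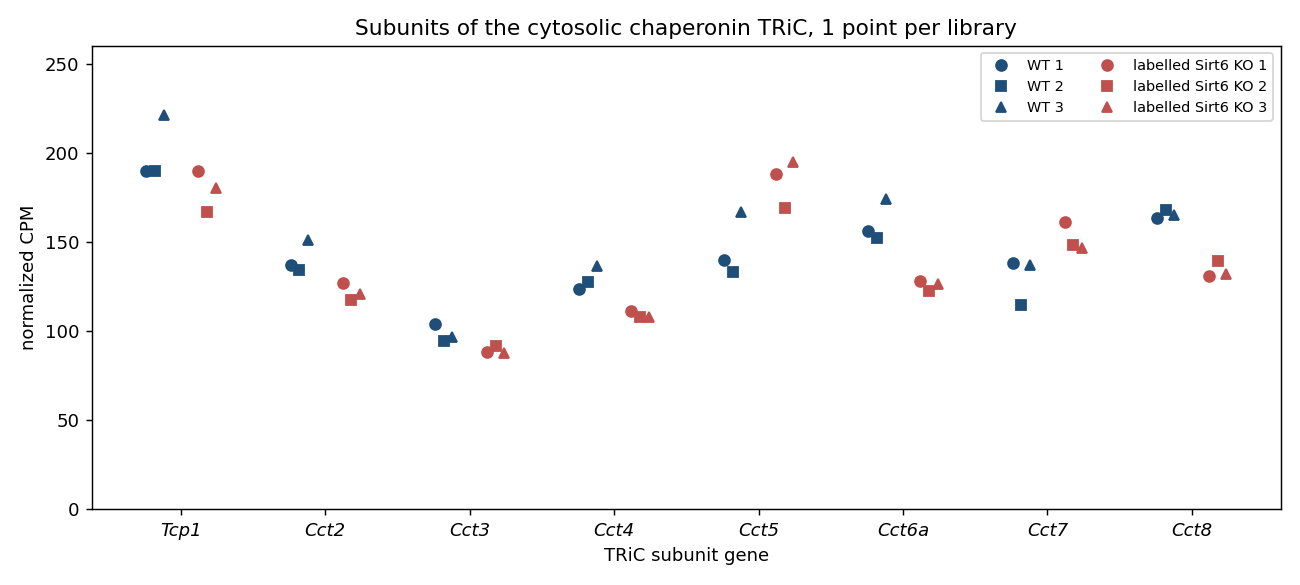
Normalized CPM (y axis, from 0) of 8 subunit genes of the cytosolic chaperonin TRiC in each of the 6 libraries, 1 point per library. *Cct6b*, at 0.281 CPM or below in every library, is not drawn. The groups are apart in all 8 genes, downward in 6 and upward in *Cct5* and *Cct7*, and none passed the test. Of all genes tested, 19.6% were apart downward and 20.3% upward.

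The cytosolic chaperonin TRiC folds actin and tubulin and is built from 8 kinds of subunit. The plot of its subunits shows differences that are small beside those of the genes above. *Cct6a* was at 156, 152 and 174 CPM in WT and 128, 122 and 126 in KO-labelled libraries (log2 fold change -0.36, standard error 0.11, adjusted p = 0.0591), and *Cct8* at 164, 168 and 165 CPM in WT and 131, 139 and 132 in KO-labelled libraries (log2 fold change -0.30, standard error 0.10, adjusted p = 0.073). *Cct4*, *Cct2*, *Tcp1* and *Cct3* had log2 fold changes of -0.25, -0.21, -0.16 and -0.14, with each WT library above each of the others, though in *Tcp1* by a margin too small to see in the plot. *Cct5* pointed the other way, at 140.1, 133 and 167 CPM in WT and 188, 169 and 195 in KO-labelled libraries (log2 fold change 0.33, standard error 0.13, adjusted p = 0.121), as did *Cct7* (log2 fold change 0.23, adjusted p = 0.215). Subunits of 1 complex thus had log2 fold changes on both sides of 0, but none was called. After the GC content correction described below, the log2 fold change of *Tcp1* was 0.12. The standard errors of the 8 lay between 0.097 and 0.13. *Cct6b*, a testis form, was near the limit of detection, with values between 0.0848 and 0.281 CPM, where 1 count was worth between 0.0165 and 0.0212 CPM.

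**Figure D4:**
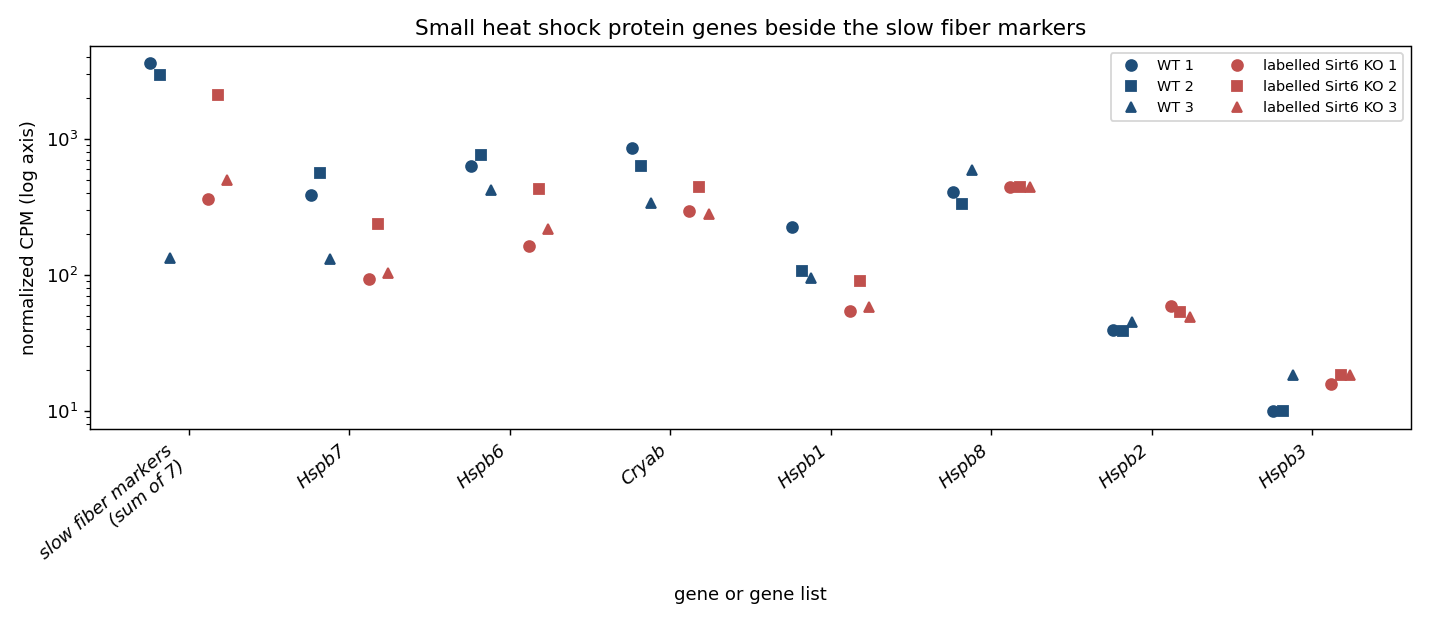
Normalized CPM (y axis, log scale) of the small heat shock protein genes and *Cryab* in each of the 6 libraries, beside the summed CPM of 7 slow fiber markers. In *Hspb7*, *Hspb6* and *Cryab*, WT 1, WT 2 and KO-labelled library 2 are the higher ones of their groups, as in the slow fiber markers.

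None of the 6 small heat shock protein genes passed the test, and in 4 of them the groups overlapped. *Hspb7*, a filamin-binding form, was at 384, 561 and 132 CPM in WT and 93.7, 235 and 103 in KO-labelled libraries. *Hspb6* (HSP20), the third gene by level per length (FPKM 429 ± 148 (SD, n = 3) in WT and 168 ± 87.1 (SD, n = 3) in the KO-labelled libraries), was at 632, 763 and 419.8 CPM in WT and 163, 427 and 216 in KO-labelled libraries. In both, WT 3 fell among or next to the KO-labelled libraries, so that the groups overlapped (log2 fold change -1.32, adjusted p = 0.135 for *Hspb7*, and log2 fold change -1.17, adjusted p = 0.0741 for *Hspb6*, which passed by DESeq2, adjusted p = 0.00682). The alpha-crystallin *Cryab*, a small heat shock protein that the symbol rule does not match, was at 851, 632 and 336 CPM in WT and 296, 439 and 280.4 in KO-labelled libraries (log2 fold change -0.84, adjusted p = 0.125), and *Cryaa* had no count. The 7 slow fiber markers (*Myh7*, *Myl2*, *Myl3*, *Tnni1*, *Tnnc1*, *Tnnt1* and *Atp2a2*) sum to 3570, 2944 and 132 CPM in WT and to 359, 2099 and 500 in the KO-labelled libraries; all 7 had a negative log2 fold change and none was called by edgeR, by DESeq2 or at an unadjusted p under 0.05. The library order of *Hspb7*, *Hspb6* and *Cryab* was not particular to them. Among the 12 stress-inducible genes, WT 3 was the lowest WT library in 9 and KO-labelled library 2 the highest of its group in 11. The part of the slow fiber markers in the values of either list was not tested.

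*Hspb1* (HSP27), whose promoter window holds 2 matches and which is one of the 12 stress-inducible genes, was at 226, 106 and 94.4 CPM in WT and 54.04, 89.8 and 58.3 in KO-labelled libraries. The lowest WT library lay just above the highest KO-labelled library, and the gene was not called (log2 fold change -1.08, adjusted p = 0.081; 0.0117 by DESeq2). *Hspb8*, the partner of BAG3, was at 404, 332 and 587 CPM in WT and 443, 439 and 445 in KO-labelled libraries, with nearly equal means of 441 ± 132 (SD, n = 3) in WT and 442 ± 2.62 (SD, n = 3) in the KO-labelled libraries (log2 fold change 0.0040, standard error 0.21), while *Bag3* fell. *Hspb2* was at 39.1, 38.9 and 44.9 CPM in WT and 59.3, 53.6 and 48.7 in KO-labelled libraries, higher in each KO-labelled library but not called (log2 fold change 0.40, adjusted p = 0.058), and *Hspb3*, its partner in muscle, at 9.96, 10.1 and 18.5 CPM in WT and 15.9, 18.5 and 18.3 in KO-labelled libraries (log2 fold change 0.45, adjusted p = 0.235). The RefSeq interval of *Hspb2* lies inside that of *Cryab*, and reads of the overlap cannot be told apart without strand.

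Genes around the chaperones were taken from lists by role. Of the heat shock factors, 3 of 5 were tested and none was called (1 was higher at an unadjusted p under 0.05 and by DESeq2). *Hsf1*, the factor that drives the stress-inducible genes, was at 33.6, 35.5 and 43.7 CPM in WT and 44.1, 39.03 and 43.9 in KO-labelled libraries, with overlap (log2 fold change 0.17, adjusted p = 0.372). *Hsf2* was lower in mean but overlapped (log2 fold change -0.27, adjusted p = 0.215). *Hsf4* was at 5.97, 6.58 and 10.6 CPM in WT and 13.8, 12.1 and 13.1 in KO-labelled libraries, higher in each KO-labelled library (log2 fold change 0.75, adjusted p = 0.0593). Of 21 co-chaperones of HSP70 and HSP90, 6 were lower (28.6%) and 2 higher (9.52%), against 8.39% and 7.85% of all genes tested, and after the correction for GC content described below 3 were lower and 0 higher (at an unadjusted p under 0.05 before it, 9 and 3). *Chordc1*, an HSP90 co-chaperone, was at 108, 76.2 and 86.8 CPM in WT and 42.7, 40.5 and 41.6 in KO-labelled libraries, without overlap (log2 fold change -1.12, standard error 0.14, adjusted p = 0.0128), and *Ahsa2*, an activator of the HSP90 ATPase, was also lower (log2 fold change -1.10, adjusted p = 0.0277). *Ptges3* (p23), which stabilizes the closed form of HSP90, was at 101, 79.7 and 92.4 CPM in WT and 53.1, 47.2 and 50.8 in KO-labelled libraries, also apart (log2 fold change -0.85, standard error 0.12, adjusted p = 0.0132), as was *Cdc37l1* (log2 fold change -0.83, adjusted p = 0.0148). After the GC correction *Ahsa2* and *Cdc37l1* were no longer called (log2 fold change -0.89, adjusted p = 0.0629 and log2 fold change -0.56, adjusted p = 0.0524).

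Prefoldin, which passes nascent actin and tubulin to TRiC, had members on both sides. Of 8 genes of prefoldin and TRiC helpers, *Vbp1* was lower, at 48.6, 54.01 and 53.9 CPM in WT and 25.8, 29.4 and 28.6 in KO-labelled libraries (log2 fold change -0.90, standard error 0.10, adjusted p = 0.011), and *Pfdn5* and *Pfdn2* were higher (log2 fold change 0.61, adjusted p = 0.0274 and log2 fold change 0.59, adjusted p = 0.0208). This was 12.5% of the list lower and 25% higher, against 8.39% and 7.85% of all genes tested. *Pfdn5* was not called after the GC correction (log2 fold change 0.43, adjusted p = 0.0883). Of 14 genes of folding in the endoplasmic reticulum, 1 was lower (7.14%, against 8.39% of all genes tested). At an unadjusted p under 0.05, 4 were lower and 0 higher, where 18.1% of all genes tested were lower. By DESeq2's adjusted p the counts were also 4 and 0, where 13.1% of all genes were lower. The gene called by edgeR was *Pdia3*, a disulfide isomerase for glycoproteins, at 107, 72.4 and 64.97 CPM in WT and 37.5, 47.9 and 43.7 in KO-labelled libraries (log2 fold change -0.92, adjusted p = 0.0272). Of 7 genes of mitochondrial protein quality control, 3 were higher (42.9%, against 7.85% of all genes tested). *Clpp*, the protease of the matrix, was at 21.8, 24.97 and 24.1 CPM in WT and 32.2, 38.4 and 34.04 in KO-labelled libraries (log2 fold change 0.56, adjusted p = 0.0222). The others were *Trap1*, the mitochondrial HSP90 (log2 fold change 0.48, adjusted p = 0.0476), and *Lonp1*, another matrix protease (log2 fold change 0.38, adjusted p = 0.0465). After the GC correction none of these 3 was called, with log2 fold change 0.32, adjusted p = 0.111 for *Clpp*, log2 fold change 0.37, adjusted p = 0.118 for *Trap1* and log2 fold change 0.16, adjusted p = 0.331 for *Lonp1*. With 1 library left out they were called without WT 3 and in no other such fit.

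Libraries and cells differed beyond the groups. The total counts lay between 44845763 and 63016899 per library, WT 1 and WT 2 being the shallowest. The 10 markers of skeletal muscle were present in every library and summed to between 164273 and 275442 CPM, the lowest being WT 1 and WT 2. Erythroid markers (6 genes, none at 0 in every library) summed to 297, 291 and 46.6 CPM in WT and 110, 181 and 80.2 in the KO-labelled libraries. Satellite cell markers were higher (3 of 3 called) at 16.8, 17.1 and 24.6 against 44.3, 32.7 and 40.7 CPM, and 1 of 4 smooth muscle and 1 of 5 Schwann cell markers was lower. Of all genes tested 7.85% were called higher and 8.39% lower. By limma on log2(FPKM + 1) 2 of the 3 satellite cell markers were called, and after the GC correction 1. No smooth muscle or Schwann cell marker was called in either. None of the endothelial, macrophage, fibroblast or adipocyte markers was called by edgeR, while at an unadjusted p under 0.05 2 endothelial and 1 fibroblast marker were lower and 1 fibroblast marker was higher. The part of these in the chaperone values was not tested.

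**Figure D5:**
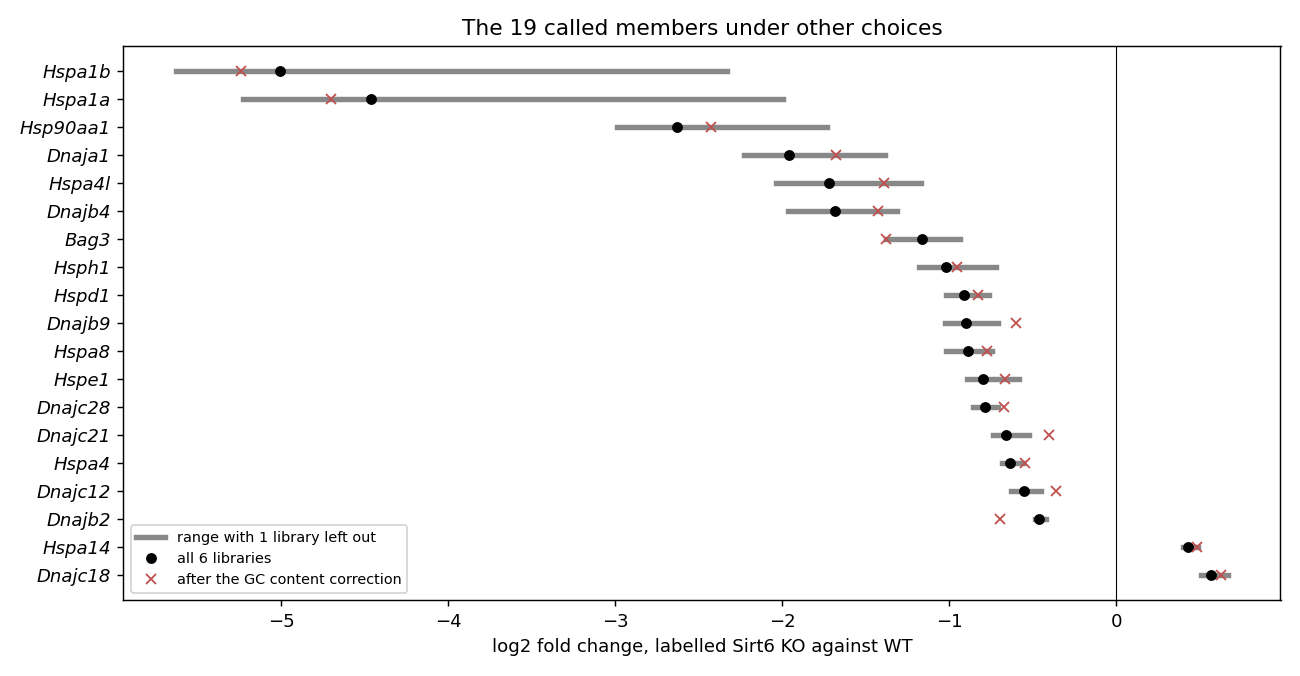
Log2 fold change (x axis, KO-labelled libraries against WT) of the 19 genes past an adjusted p of 0.05: black points are all 6 libraries, grey bars span the 6 fits with 1 library left out, and red crosses are the values after the GC content correction. No bar or cross reaches 0.

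The plot of the 19 called genes under other choices shows their signs in each fit. No sign changed, but whether a gene passed depended on the libraries. Without WT 1, 4 of the 80 genes were called lower (*Dnaja1*, *Hspd1*, *Hsp90aa1* and *Hspe1*), against 259 lower and 181 higher of all genes tested. Without WT 2, KO-labelled library 1 or KO-labelled library 3, none of the 80 was called by edgeR, although 26, 24 and 21 were lower at an unadjusted p under 0.05; over all genes tested those fits called 153, 2 and 5 lower and 96, 6 and 8 higher. Without KO-labelled library 2, 7 were lower and 1 higher, against 442 and 431 of all genes tested, and without WT 3, 25 and 8, against 2219 and 2363. DESeq2 called 25 lower and 4 higher (13.1% and 12.5% of all genes), and limma on log2(FPKM + 1) called 19 and 8 of 77 (10.9% and 13.4%). The fold changes of all genes rose with the GC content of their transcripts (Spearman's rho 0.339 across genes; genes are no independent replicates). With that trend removed 10 were lower and 2 higher (3.59% and 3.38% of all genes). No longer called after the correction were *Hspa1a*, *Hspa1b*, *Hspa8*, *Hspe1*, *Hspa4l*, *Dnajb9*, *Dnajc21* and *Dnajc12* (adjusted p from 0.05002 to 0.169), while *Bag1* was called in addition. The corrected log2 fold changes of those 8 genes, in the same order, were -4.71, -5.24, -0.77, -0.67, -1.39, -0.60, -0.41 and -0.36.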

How the data were processed

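RNA of GAS muscle was measured in 3 libraries labelled WT and 3 labelled *Sirt6* KO, grouped by the sample labels. The submitters' processing notes name mm10 (GRCm38), HISAT2 2.1.0 and StringTie 2.1.3b; for the aligner, STAR stands in the reporting summary. The methods and the labels name different TruSeq kits, of which that of the labels is stranded, and whether the counting used strand is not given in the sources used here. The authors deposited whole-number read counts for each gene, with no normalization. The FPKM columns, also deposited by the authors, correct for length and depth and were used for levels between genes and for limma. The TPM values that the authors deposited were not used here. The table holds 24532 genes, of which 7342 had no count.

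Counts were tested in R 4.3.3 with edgeR 4.0.16 (filterByExpr, TMM, quasi-likelihood test with the group as its one factor, Benjamini-Hochberg over 13801 genes). Total counts were 44845763 to 63016899 per library, 1 count being worth 0.0165 to 0.0212 normalized CPM; limits from counts of 0 use 3 counts and cover counting error only. TMM factors were 0.909 to 1.11 and the common biological coefficient of variation 24.1%. Scripts were tested on simulated data. Alternatives were DESeq2 1.42.0 (Wald test), its size factors in the edgeR fit, no filter, at least 10 counts in every library, limma 3.58.1 after quantile normalization of log2(FPKM + 1) (the scale of the study's methods) or log2(FPKM + 0.1), a replicate block, each library left out in turn, a lowess trend over GC content (span 0.3; GC known for 96.2% of genes tested), *Hspa1a* and *Hspa1b* added together, and a 2-fold change with unadjusted p under 0.05. Exact permutation tests on the log2 level were two-sided.

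The members were matched by symbol alone. The choice of these families and of all gene lists was made with earlier results of these data known. Named with values were 12 stress-inducible members, *Hspa5*, *Hsp90b1* and *Hspa9*, the TRiC and small heat shock protein genes, every other member called without overlap between the groups, the 3 with the highest FPKM in WT, the heat shock factors, *Cryab* and up to 4 called genes of each other list. Promoter windows and coordinates come from RefSeq (GRCm38.p6), matched by gene identifier for all 90 members. The sources used here do not say whether replicate numbers pair the libraries. Deviations of same-numbered libraries had correlations of -0.098, 0.24 and 0.15, which with so few libraries cannot exclude a pairing.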

Additional observations from a re-analysis of the deposited data

How the results depend on the processing

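The count of members called lower (17) lay within 1.5 times under the other tests, scalings and filters, except for 10 after the GC content correction; with 1 library left out it ranged from 0 to 25. The count called higher (2) became 4 with DESeq2, 1 with no filter on low counts, 8 and 7 with limma at pseudocounts of 1 and 0.1, 0 past 2-fold with unadjusted p under 0.05, and 0 to 8 with 1 library left out. The median of -0.25 became -0.14 after the GC correction and lay between -0.296 and -0.206 with 1 library left out. The replicate block gave 13 lower and 1 higher, with a median of -0.26. *Hspa1b* and *Hspa1a* were not called with it (-3.58 and -3.30 on the log2 scale, adjusted p = 0.101 and 0.103 by edgeR). Whether the numbers pair the libraries is not known. The block called 904 genes higher and 1018 lower over all genes. DESeq2 kept the 17 calls for which it gave a p, and the GC correction 11 of 19. The sign turned under at least 1 of the 15 alternatives in 19 of the 80 members, none of them called; 15 of these are not described singly. Among the genes described with values, these turned: *Hspa5* without WT 1 (0.042) and without KO-labelled library 1 (0.022), *Cct6b* with the block (0.031), without WT 1 (0.17) and without WT 3 (0.17), *Tcp1* (0.12) and *Hsf2* (0.15) after the GC correction, and *Hspb8* after it (-0.13), without WT 1 (-0.043) and without WT 2 (-0.16). With 1 library left out these log2 fold changes ranged from -0.43 to 0.042 for *Hspa5*, from -0.44 to 0.17 for *Cct6b* and from -0.16 to 0.27 for *Hspb8*. The causes were not tested, except that leaving out a library lowers the number of libraries. *Cct6b* rests on 70 counts.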
